A study of Mus musculus with 3 samples.

Results

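Dendritic cells carrying transcripts of the chemokine receptor CCR7 were described in a single-cell RNA-Seq dataset of CD45+ cells sorted from the mouse pancreas. They were chosen by their own counts of UMIs (unique molecular identifiers, each standing for 1 captured transcript). Barcodes with at least 1000 UMIs and at most 30% mitochondrial UMIs were kept. A member then needed at least 1 UMI of Fscn1, at least 3 UMIs of Ccr7, Fscn1 and Ccl22 together, at least 5 of H2-Ab1, fewer than 2 of Xcr1 and Clec9a together, and no UMI of Cd79a, Cd3d, Cd3e, C1qa, C1qb or C1qc. The rule found 52 members among 14302 barcodes (0.364%), with 7 in the PBS library, 19 in the 3-day WGP library and 26 in the 7-day WGP library.

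The cells came from C57BL/6 mice injected intraperitoneally with PBS or with WGP, whole β-glucan particles from the yeast Saccharomyces cerevisiae. Pancreata were taken from PBS mice, from mice given WGP 3 days earlier and from mice given WGP 7 days earlier, and viable CD45+ cells of each condition gave 1 library. The study's methods give male and female mice of 6 to 8 weeks, whereas the labels give neither sex nor number of mice per library. With 1 library per condition no test between conditions was possible, so differences between libraries are given as sizes, and 95% intervals cover counting error only.

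As background, dendritic cells that meet a danger signal switch off antigen uptake and switch on a maturation program. CCR7 lets them follow CCL19 and CCL21 into lymphatic vessels and on to the draining lymph node, fascin (Fscn1) bundles the actin of their long protrusions, and CCL22 attracts T-cells that carry CCR4. Type 1 conventional dendritic cells, marked by Xcr1 and Clec9a, are known for cross-presentation to CD8+ T-cells. Type 2 cells, marked by Cd209a and Clec10a, are known for presentation to CD4+ T-cells, and both types can mature into the CCR7 state.

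The 3 libraries held between 48219246 and 56849043 UMIs, and within the limits the median was between 5754 and 8077 UMIs per barcode. Members had a median of 7566 UMIs in PBS, 8774 at 3 days and 10656.5 at 7 days. Of the barcodes within the limits, 15 were found in more than 1 library and none of these was a member. The doublet caller Scrublet called 0, 0 and 2 barcodes, which at this cell number means that it did not work, and 2 of the 52 members were among the barcodes with the highest scores. Each library held cells with Xist and cells with Y-linked transcripts in unequal proportion. Among members 4 of 7 PBS cells carried Xist and 3 carried Y-linked transcripts, against 1 and 15 of 19 at 3 days and 4 and 18 of 26 at 7 days.

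The label was checked against genes the rule did not use, and 5 members went against it. These cells (2 at 3 days and 3 at 7 days, with 16736 to 49088 UMIs each) held between 194 and 797 UMIs of the fibroblast transcripts Dcn, Col3a1 and Col1a1. None of the 5 had a UMI of Ccr7, Ccl22 or Il4i1, and each had at most 1 UMI of Ptprc, which encodes CD45. The other 47 members had no UMI of the 3 fibroblast genes. Because the 5 cells held 30.3% of all member UMIs, gene levels below are given over the 47 members (7, 17 and 23 by library), a choice made after the values were seen, and member counts and shares over all 52. Ratios over all 52 are lower by 0.67 (3-day over PBS) and 0.54 (7-day over PBS) on the log2 scale and higher by 0.13 (7-day over 3-day) for a gene that these 5 cells lacked.

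The named receptor was not found in each of the 47 cells, since 37 had a Ccr7 UMI and 25 a Ccl22 UMI. A Ccr7 UMI was found in 4 of 7 PBS, 13 of 17 3-day and 20 of 23 7-day cells, and a Ccl22 UMI in 1, 11 and 13. The sum of the 3 marker genes had a median of 7 UMIs (range 3 to 14) in PBS, 20 (3 to 203) at 3 days and 30 (3 to 157) at 7 days. These values chose the cells and are a description. At the edge of the rule, 6 members had a sum of 3 and 2 a sum of 4, while 6 barcodes that met all other criteria had a sum of 2. Of the 16 maturation genes listed below, which the rule did not use, the median cell carried a UMI of 9 in PBS and of 13 in each WGP library.

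The limit of zero UMIs for B-cell, T-cell and C1q genes left out cells that bear on the PBS library. Exactly 1 UMI of Cd79a or of a C1q gene kept 7 further barcodes from the group, 3 in PBS, 2 at 3 days and 2 at 7 days, and 2 of these 7 held fibroblast transcripts (632 and 808 UMIs). Of the 3 PBS barcodes, the first had 19234 UMIs with 187 of Ccl22, 15 of Ccr7 and 32 of Il4i1. The second had 14795 UMIs with 9 of Fscn1 and 52 of Tbc1d4, and the third 11399 UMIs with 19 of Ccr7, 21 of Fscn1, 137 of Ccl5 and 34 of Apol7c. All 3 carried maturation transcripts, so levels in PBS are given with them as well (10 PBS, 18 3-day and 24 7-day cells, none with fibroblast transcripts) wherever they move a call.

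CCR7 dendritic cells formed a larger share of the sorted cells in both WGP libraries than in PBS. They were 0.133% of 5249 barcodes in PBS (interval 0.0536 to 0.275), 0.389% of 4879 at 3 days (0.235 to 0.607) and 0.623% of 4174 at 7 days (0.407 to 0.911; exact Clopper-Pearson binomial intervals). The log2 ratio was 1.55 for 3-day WGP over PBS (0.23 to 3.04) and 2.22 for 7-day WGP over PBS (0.98 to 3.67). The interval of the 7-day over 3-day ratio, 0.68 (-0.23 to 1.61), included 0. With at most 1 UMI allowed for each zero limit the ratios over PBS were 1.18 and 1.82, and without the cells that held fibroblast transcripts they were 1.39 and 2.05.

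Relative to other dendritic cells the order of the WGP libraries was the other way. The members were 4.49% of 156 dendritic cells in PBS, 14.1% of 135 at 3 days and 12.2% of 213 at 7 days, counting members with type 1 cells (73, 81 and 72) and type 2 cells (76, 35 and 115). These counts include the cells with fibroblast transcripts, 2 at 3 days and 3 at 7 days, which raise the share in the WGP libraries only. The log2 ratios were 1.65 (0.34 to 3.14) and 1.44 (0.20 to 2.89) over PBS and -0.21 (-1.11 to 0.73) for 7 over 3 days. This denominator moved itself, since the share of type 2 cells among all barcodes had log2 ratios over PBS of -1.01 (-1.63 to -0.42) at 3 days and 0.93 (0.50 to 1.37) at 7 days. In Xist cells alone the ratios of share among all barcodes were 0.09 and 0.76, and in Y cells alone 1.79 and 2.48. The dendritic cells differed in sex as well. Type 2 cells with Xist numbered 73, 4 and 27 in the 3 libraries, and those with Y-linked transcripts 2, 18 and 73. Of type 1 cells 22, 63 and 43 carried Y-linked transcripts, and of members 3, 15 and 18. By these counts the share among dendritic cells rose less over PBS in Y cells alone, where PBS had only 3 members. Xist was carried by 2039, 479 and 1208 barcodes of the 3 libraries, so the mix of male and female cells and the treatment cannot be told apart.

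**Figure D1:**
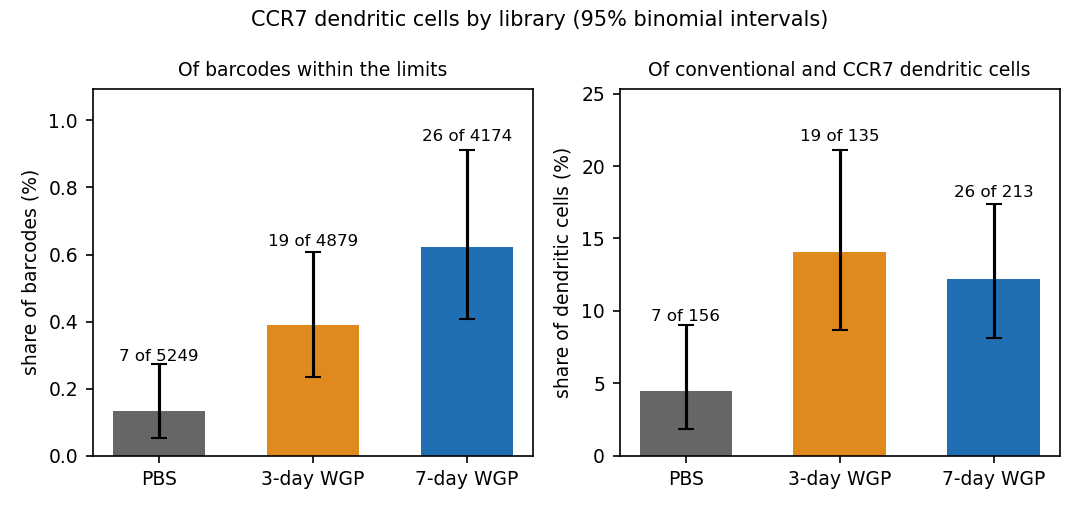
Share of CCR7 dendritic cells (%) in each library, of all barcodes within the limits (left) and of members plus type 1 and type 2 conventional dendritic cells (right). Bars are shares, whiskers are exact 95% binomial intervals and the labels give the counts. Both WGP bars stand above PBS, at 0.389% and 0.623% against 0.133% on the left. The WGP bars include the 5 members with fibroblast transcripts.

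**Figure D2:**
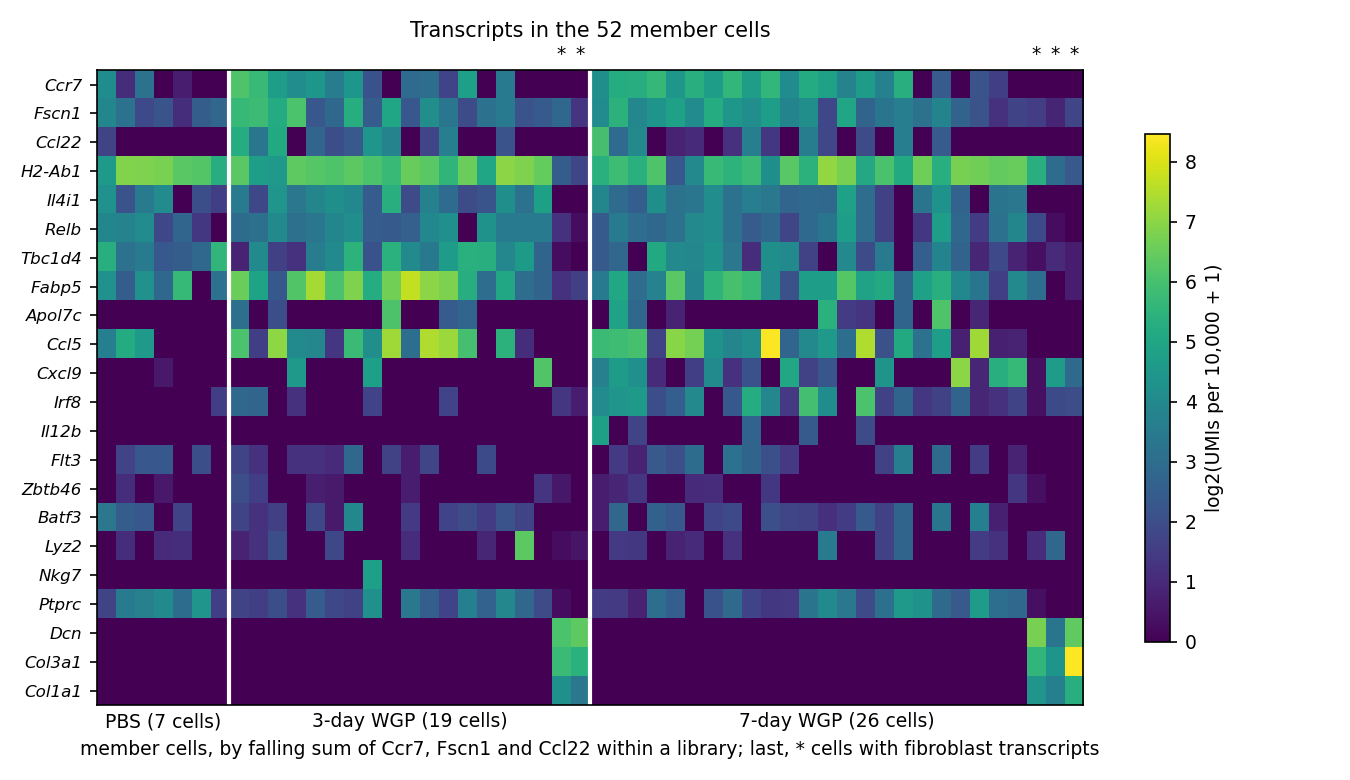
Transcript levels (log2 of UMIs per 10000 plus 1) in the 52 members, with 1 column per cell, grouped by library and ordered by the sum of Ccr7, Fscn1 and Ccl22; white lines part the libraries. The 5 starred cells carry Dcn, Col3a1 and Col1a1 and no Ccr7, Ccl22 or Il4i1, and Irf8 and Cxcl9 are found mainly in 7-day cells.

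Levels of the rule's own genes are given as CPM, a gene's UMIs per 1000000 UMIs summed over the members of a library. Ccr7 (chr11:99144196-99155077, minus strand, mm10) had 218 CPM in PBS (15 UMIs), 1915 at 3 days (303 UMIs) and 2030 at 7 days (455 UMIs). Fscn1 (chr5:142960343-142973185, plus strand) had 437, 2060 and 1495 CPM. Both were low in PBS, and with the 3 further PBS cells their PBS levels were 429 and 578 CPM, still below both WGP libraries. Ccl22 (chr8:94745590-94751699, plus strand) had 14.6, 910 and 692 CPM, from 1, 144 and 155 UMIs. With the 3 further cells PBS had 1656 CPM of Ccl22, above both WGP libraries, so its direction turned on the zero limits.

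The members carried the maturation program in every library. Of 16 listed maturation genes 15 passed a filter of 50 UMIs over the 47 members (Ccl17 did not), and ratios are log2 ratios of CPM with 20 CPM added to each side, called past 2-fold at 1 or more in size. Over type 2 cells 12 of the 15 were past 2-fold higher in all 3 libraries, where 95 of the 1195 genes measured were (7.95%). Against type 1 cells it was also 12 of 15, where 159 of 1195 genes were (13.3%). The filter on member UMIs favours genes that are high in members, among the listed genes and among all 1195 alike. All 15 were higher than in either type in both WGP libraries, and Apol7c, Cd200 and, over type 1 cells, Serpinb6b or, over type 2 cells, Marcks did not reach 2-fold in PBS.

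Il4i1 (chr7:44816387-44840809, plus strand), a secreted amino acid oxidase that restrains T-cells, was among the transcripts that set the members apart most. It had 772, 1119 and 892 CPM in members of the PBS, 3-day and 7-day libraries, against 17.0, 77.2 and 55.2 in type 2 and 2.57, 3.76 and 23.3 in type 1 cells. In PBS 31 of its 53 UMIs came from 1 cell. The log2 ratios over type 2 cells were 4.42, 3.55 and 3.60. Relb, the NF-kB subunit of the alternative pathway, had 655, 1011 and 790 CPM in members and between 60.5 and 108 in type 2 cells. Tbc1d4 (chr14:101442360-101609191, minus strand), a Rab GTPase-activating protein, had 1107, 1555 and 808 CPM in members and between 47.8 and 111 in type 2 cells. Il4i1 and Relb were past 2-fold in no comparison between libraries. Tbc1d4 had a log2 ratio of -0.93 at 7 over 3 days, and of -1.14 with the cells just outside the zero limits.

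**Figure D3:**
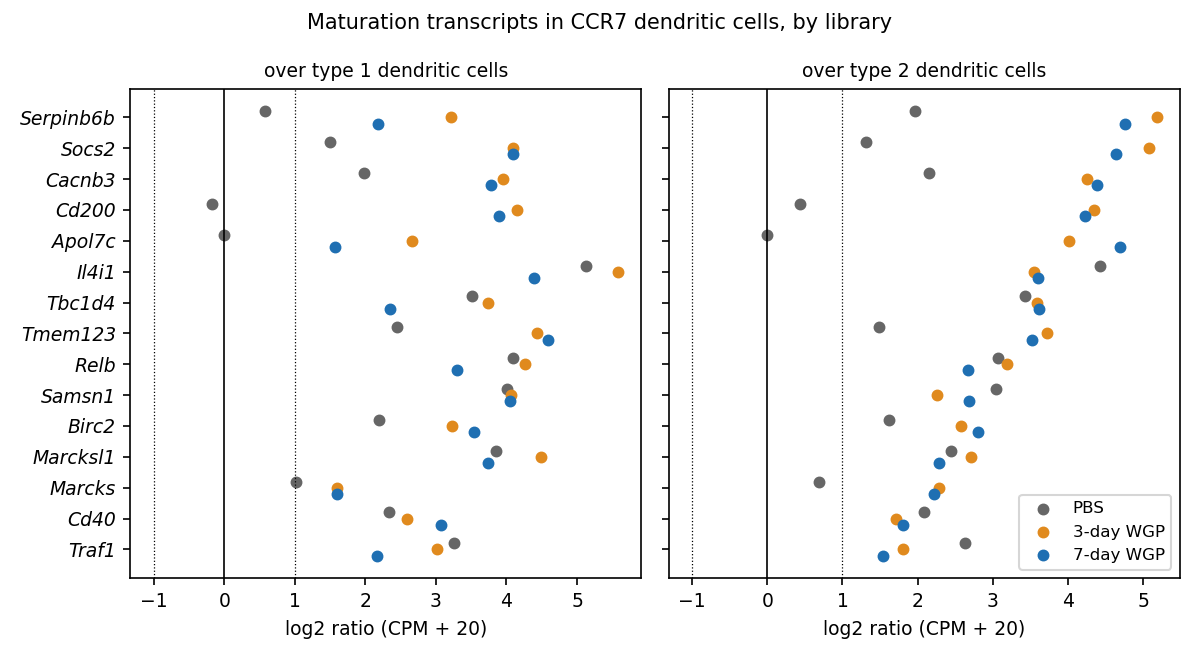
Log2 ratios (20 CPM added to each side) of the 15 measured maturation genes in CCR7 dendritic cells over type 1 (left) and type 2 (right) conventional dendritic cells of the same library; each point is 1 library, the solid line is no difference and the dotted lines are 2-fold. Il4i1, Relb and Tbc1d4 lie to the right of 2-fold in all 3 libraries, while the PBS points of Cd200 and Apol7c lie near 0.

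Fabp5 and Ccl5 stood beside these genes outside the list. Fabp5 (chr3:10012548-10016607, plus strand), a fatty acid carrier, had 1864 CPM in PBS, 7830 at 3 days and 2508 at 7 days, against at most 90.8 CPM in either type of dendritic cell. In PBS 67.2% of its 128 UMIs came from 1 cell and at 3 days 29.7%, and the log2 ratio of 7 over 3 days was -1.63. Free RNA, taken from barcodes of at most 100 UMIs, held 58.8, 899 and 1035 CPM of Fabp5. Ccl5 (chr11:83525778-83530518, minus strand), a chemokine that attracts T-cells and monocytes, had 772, 3470 and 5007 CPM, against at most 71.5 in type 1 and 295 in type 2 cells. All 23 cells at 7 days, 15 of 17 at 3 days and 3 of 7 in PBS carried a Ccl5 UMI.

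Among the transcripts with the lowest ratios over type 2 cells in all libraries were Lyz2 (lysozyme), Lgals3 (galectin-3), Ifitm3, Fos, Atf3 and Hspa1a, and 18 of 1195 genes were past 2-fold lower in all 3 (1.51%). Lgals3 had 102, 202 and 165 CPM in members and between 1029 and 1339 in the other dendritic cells. Against type 1 cells 17 genes were lower in all 3 libraries (1.42%), Psap (prosaposin) and Cst3 (cystatin C) among them. Cst3, which type 1 cells express strongly, had 2097, 5441 and 7104 CPM in members and between 22248 and 26823 in type 1 cells.

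The libraries were then compared gene by gene. Over all 52 members 1844 genes passed the filter, of which 315 were past 2-fold higher (17.1%) and 172 lower (9.33%) in 3-day WGP than in PBS. In 7-day WGP over PBS 352 were higher (19.1%) and 124 lower (6.72%), and in 7-day over 3-day WGP 103 were higher (5.59%) and 46 lower (2.49%). Over the 47 members, with 1195 genes, the counts were 161 higher (13.5%) and 103 lower (8.62%) at 3 days over PBS, 187 (15.6%) and 76 (6.36%) at 7 days over PBS, and 58 (4.85%) and 15 (1.26%) at 7 over 3 days. PBS rested on 68674 UMIs from 7 cells, against 158234 and 224093 in the WGP libraries. With the cells just outside the zero limits added, 99 of the 161 and 131 of the 187 genes higher than in PBS were still called, as were 49 of the 58 higher at 7 than at 3 days. Of the lower genes 44 of 103, 39 of 76 and 10 of 15 were still called. The filter sums UMIs over the libraries, so a gene that passed only through 1 library was in part chosen for its level there. Among the lists below, 4 of 10 measured NF-kB, 3 of 7 identity and 2 of 13 MHC class I genes passed only through their 7-day UMIs. The same held for 2 of 18 cytoskeletal and 2 of 9 lysosomal genes. Scaling by TMM (trimmed mean of M-values) raised ratios over PBS by 0.48 at 3 days and 0.41 at 7 days over the 47 members. It moved the higher part of all calls over 52 members from 64.7% to 84.9% at 3 days and from 73.9% to 89.5% at 7 days.

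Between the libraries 8 of the 15 maturation genes were past 2-fold higher at 3 days over PBS (13.5% of all genes) and 9 at 7 days (15.6%), with medians of 1.31 and 1.59. At 7 over 3 days 1 (Cd40) was higher (4.85% of all genes). With the cells just outside the zero limits 5 and 7 were higher than in PBS, with medians of 0.73 and 0.95, and at 7 over 3 days 1 was higher and 1 (Tbc1d4) lower. Cd40 and Apol7c passed the filter only through their 7-day UMIs. Socs2, Cd200 and Serpinb6b were among those called either way. Serpinb6b, an inhibitor of serine proteases, had 58.2 CPM in PBS (4 UMIs in 1 cell), 796 at 3 days (in 8 of 17 cells) and 906 at 7 days (in 17 of 23). Apol7c, an apolipoprotein L family member, had no UMI in PBS, 303 CPM at 3 days and 495 at 7 days, at least 6.94-fold and 11.3-fold higher, whereas with the further cells PBS had 298 CPM and the ratios were -0.04 and 0.59.

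Most listed targets of interferon-γ had a higher level in members at 7 than at 3 days. Their summed level also rose from 3 to 7 days in type 1 and type 2 cells, so the rise was not particular to members. In the PBS, 3-day and 7-day libraries the sum was 2721, 2679 and 3365 CPM in type 1 cells. In type 2 cells it was 792, 886 and 4018 CPM. Interferon-γ, made by T-cells and NK cells, switches on target genes such as the guanylate-binding proteins, the T-cell attractants Cxcl9 and Cxcl10 and the transcription factors Irf1 and Irf8. Of 16 listed targets 8 passed the filter, but 5 of the 8 (Gbp5, Iigp1, Cxcl10, Irf1 and Irf8) passed only through their 7-day UMIs, so no count or median over the 8 is given. Of the 3 that passed without the 7-day library Gbp2 and Cxcl9 were past 2-fold higher at 7 than at 3 days and Ciita was not. With no filter 15 of all 16 had a higher level at 7 than at 3 days. Of these 11 were past 2-fold higher, and none of the 16 was past 2-fold lower. Of the 16 targets 8 had under 50 UMIs. Over all members, cells with fibroblast transcripts included, 407 of 12232 genes (3.33%) were past 2-fold higher at 7 than at 3 days with no filter. That share includes cells that the count of 11 leaves out, so it is a rough guide. No share over all genes is given for the 15, and the lists were chosen with earlier results of these data known. Free RNA moved with the targets. The 16 targets summed to 714, 1997 and 6439 CPM in members of the PBS, 3-day and 7-day libraries. In free RNA they summed to 517, 861 and 3045 CPM, and the part of free RNA in the result was not tested. Among cells with Y-linked transcripts alone the 7-day over 3-day log2 ratios were 2.59 for Irf8, 1.39 for Cxcl9, 0.95 for Gbp2 and 0.50 for Irf1.

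Gbp2 (chr3:142620602-142638008, plus strand), a guanylate-binding protein that attacks pathogen-bearing vacuoles, had 29.1 CPM in PBS (2 UMIs), 430 at 3 days (68 UMIs in 13 cells) and 977 at 7 days (219 UMIs in 22 cells). Gbp5 (chr3:142493978-142522344, plus strand), of the same family, had 14.6 CPM in PBS (1 UMI), 19.0 at 3 days (3 UMIs) and 250 at 7 days (56 UMIs in 17 cells). The log2 ratio of Gbp5 at 7 over 3 days was 2.79, and its 1 and 3 UMIs in PBS and at 3 days were too few to compare. Gbp2 was already higher at 3 days than in PBS (3.19). Iigp1, a GTPase of the same defence, had no UMI in PBS, 2 UMIs at 3 days and 55 in 10 cells at 7 days, at least 5.62-fold higher than in PBS, and Irf1 had 43.7, 259 and 482 CPM. Ciita, the activator of MHC class II genes, was the 1 measured target below PBS at both times, with 510, 354 and 272 CPM and no ratio past 2-fold.

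Irf8 (chr8:120736358-120756694, plus strand), a transcription factor on which type 1 dendritic cells depend, had 14.6 CPM in PBS (1 UMI), 133 at 3 days (21 UMIs in 5 cells) and 1151 at 7 days (258 UMIs in 21 of 23 cells). Its log2 ratio at 7 over 3 days was 2.94, and 2.90 with the cells just outside the zero limits. In type 1 cells it was high throughout (2192, 2147 and 1757 CPM), and in type 2 cells it had 14.2, 106 and 208 CPM. At 7 days the level summed over members therefore lay between those of the 2 types. This sum joined unlike cells. The 8 cells with 10 or more Irf8 UMIs, a split on Irf8 itself, had 2708 CPM (215 UMIs). The other 15 had 297 CPM (43 UMIs).

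**Figure D4:**
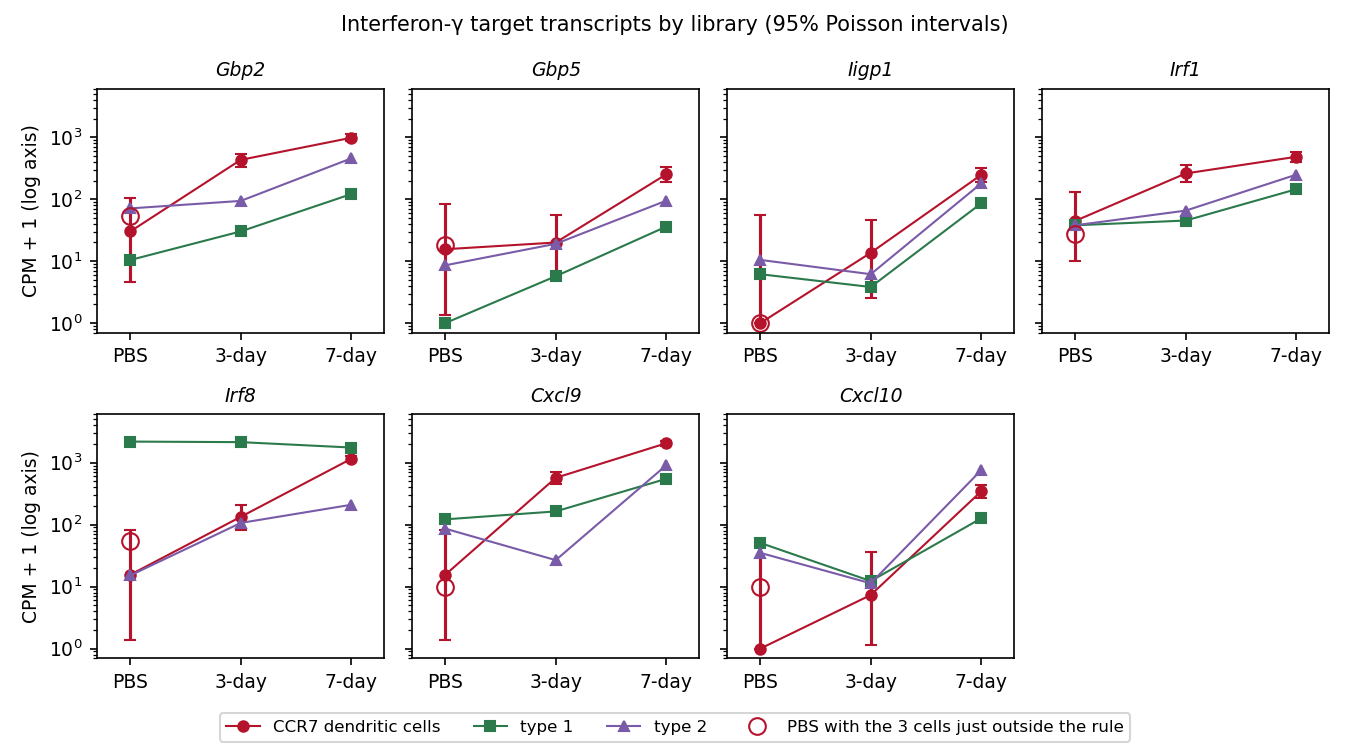
Levels (CPM plus 1, log axis) of 7 interferon-γ targets in CCR7 dendritic cells (circles, with 95% Poisson intervals), type 1 (squares) and type 2 (triangles) cells of the 3 libraries; open circles are PBS with the 3 cells just outside the zero limits. Gbp5, Iigp1, Cxcl10, Irf1 and Irf8 passed the filter only through their 7-day UMIs, so they were in part chosen for their level there. Ciita, the measured target that was lower in both WGP libraries than in PBS, is not drawn. In CCR7 dendritic cells Irf8 goes from 14.6 to 1151 CPM while type 1 cells hold between 1757 and 2192 CPM.

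The promoters of targets that differed between the WGP libraries are shown because interferon response motifs have known letters. RefSeq promoters (GRCm38.p6, the build mm10) of 250 bases before and 50 after the start were searched on both strands for GAAANNGAAA, the core of the interferon-stimulated response element, for TTCNNNGAA, the gamma-activated site, and for an NF-kB site. Of 32851 promoters 3.44%, 8.30% and 9.38% held a match. Of the 8 measured targets 6 had a RefSeq promoter (8 promoters). Each motif was found in 3 of these 8 promoters (37.5%), from 3 genes each. The set is small, and 5 of the 8 targets had passed the filter only through their 7-day UMIs. A match is a description of letters and not of a bound site. In the 4 promoters below, written 5′ to 3′ on the gene's strand, capitals mark matches to the first and second motifs, none of which overlap. The Gbp5 start used by RefSeq lies inside the gene's annotated span.
Gbp2, chr3:142620413-142620712, plus strand, 1 response element starting 59 bases before the start: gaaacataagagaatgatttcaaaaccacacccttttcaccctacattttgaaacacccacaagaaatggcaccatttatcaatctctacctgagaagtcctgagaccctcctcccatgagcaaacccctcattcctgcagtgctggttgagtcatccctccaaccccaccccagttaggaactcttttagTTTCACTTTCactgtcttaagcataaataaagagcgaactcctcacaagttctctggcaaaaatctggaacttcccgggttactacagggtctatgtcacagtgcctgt
Gbp5, chr3:142496684-142496983, plus strand, 1 response element and 2 gamma-activated sites: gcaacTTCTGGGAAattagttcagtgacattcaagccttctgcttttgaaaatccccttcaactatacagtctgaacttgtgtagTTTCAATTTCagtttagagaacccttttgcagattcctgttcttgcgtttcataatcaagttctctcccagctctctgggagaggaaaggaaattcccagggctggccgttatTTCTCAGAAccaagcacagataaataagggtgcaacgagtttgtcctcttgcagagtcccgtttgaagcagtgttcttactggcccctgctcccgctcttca
Cxcl10, chr5:92348840-92349139, minus strand, 1 response element starting 213 bases before the start: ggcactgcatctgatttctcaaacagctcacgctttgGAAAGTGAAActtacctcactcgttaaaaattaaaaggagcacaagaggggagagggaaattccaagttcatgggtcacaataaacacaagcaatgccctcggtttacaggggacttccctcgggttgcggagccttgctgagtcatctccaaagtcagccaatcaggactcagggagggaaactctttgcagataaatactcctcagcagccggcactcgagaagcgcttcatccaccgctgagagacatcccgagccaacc
Irf8, chr8:120736108-120736407, plus strand, 2 gamma-activated sites: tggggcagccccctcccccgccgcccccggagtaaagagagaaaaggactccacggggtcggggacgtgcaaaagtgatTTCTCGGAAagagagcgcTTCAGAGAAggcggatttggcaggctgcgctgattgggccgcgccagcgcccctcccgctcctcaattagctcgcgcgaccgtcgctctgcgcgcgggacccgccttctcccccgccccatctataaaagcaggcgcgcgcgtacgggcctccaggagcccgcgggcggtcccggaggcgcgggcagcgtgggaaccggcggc

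Other interferon-stimulated genes were for the most part too low to compare. Of 18 listed 5 passed the filter, with 4 past 2-fold higher and 1 lower at 3 days over PBS, 4 higher at 7 days over PBS and 3 higher at 7 than at 3 days, although 4 of the 5 passed only through their 7-day UMIs. The shares over all genes were 13.5% higher and 8.62% lower at 3 days, 15.6% higher at 7 days and 4.85% higher at 7 over 3 days. Isg15, a ubiquitin-like protein of the antiviral response, had 29.1 CPM in PBS, 171 at 3 days and 607 at 7 days. Ifi47, an interferon-inducible GTPase, had no UMI in PBS, 56.9 CPM at 3 days and 321 at 7 days, and Zbp1, a sensor of nucleic acids, 14.6, 114 and 192 CPM. Bst2, which tethers budding virus, had 262, 88.5 and 348 CPM and was the gene lower at 3 days. This call was lost with the further cells (-0.90), and over all 52 members the ratio was 0.11.

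Chemokine genes that passed the filter, other than Ccl22, were past 2-fold higher at 7 days than in PBS, and 9 more fell below it. Of 14 listed chemokine genes 5 passed the filter, 4 of them past 2-fold higher at 3 days (13.5% of all genes) and 5 at 7 days (15.6%) over PBS. Both counts include Ccl22, whose UMIs the rule used to choose the members. Cxcl9 and Cxcl10, the latter passing only through its 7-day UMIs, were higher at 7 than at 3 days (4.85% of all genes). With the cells just outside the zero limits 3 were higher at 3 days and 4 at 7 days, and Ccl22 was past 2-fold lower at 7 days. Cxcl9 (chr5:92321347-92328079, minus strand) had 1 UMI in PBS, 90 in 3 cells at 3 days (569 CPM) and 461 in 16 of 23 cells at 7 days (2057 CPM). Of these UMIs 1 cell held 50 at 3 days and 1 cell 182 at 7 days. Cxcl10 (chr5:92346638-92348889, minus strand) had 0 and 1 UMI in PBS and at 3 days and 77 in 7 cells at 7 days (344 CPM), where 1 cell held 55.8% of them and type 2 cells had 756 CPM. Cxcl16, the ligand of CXCR6 on resident T-cells, had 131, 752 and 839 CPM, and 342 in PBS with the further cells. Both interferon-inducible chemokines were thus found in a minority of 3-day cells, and Cxcl9 in most 7-day cells.

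Of 17 listed cytokine genes 3 passed the filter, and 8 had no UMI in any member. Il12b (chr11:44400063-44414033, plus strand), the p40 subunit of IL-12 and IL-23, had no UMI in PBS or at 3 days and 57 UMIs in 5 cells at 7 days (254 CPM), of which 1 cell held 78.9%. The limit that a count of 0 allows was 43.7 CPM in PBS and 19.0 CPM at 3 days, which makes the 7-day level at least 5.82-fold and 13.4-fold higher, but Il12b passed the filter only through the 7-day library and was in part chosen for its level there. Il1b had 43.7, 594 and 959 CPM in members, below type 2 cells in each library (222, 857 and 1618 CPM). Ltb, lymphotoxin β, went the other way, with 815 CPM in PBS (56 UMIs in 7 of 7 cells), 126 at 3 days (in 4 of 17) and 129 at 7 days (in 8 of 23), and log2 ratios of -2.51 and -2.48 over PBS.

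Costimulation genes differed in part. Of 13 listed 5 passed the filter, with 2 past 2-fold higher at 3 days, 3 at 7 days, and 1 lower in both over PBS, although 4 of the 5 (all but Cd83) passed only through their 7-day UMIs. The shares over all genes were 13.5% higher and 8.62% lower at 3 days and 15.6% and 6.36% at 7 days. Cd83 had 233, 550 and 857 CPM and Cd86, the ligand of CD28 and CTLA-4, 72.8, 190 and 290. Cd40, through which T-cells license dendritic cells, had 146, 215 and 562 CPM and was the 1 gene of this list past 2-fold between 3 and 7 days (log2 ratio 1.31). Cd48, a ligand of CD244, was the lower gene, with 320, 107 and 53.5 CPM. Among 19 genes of inhibition and tolerance 6 passed the filter. At both times 4 were higher than in PBS, beside the same 13.5% and 15.6% of all genes. Of the 6 genes 3, Cd274 among them, passed only through their 7-day UMIs. Cd274, which encodes PD-L1, had 58.2, 196 and 326 CPM, Cd200 had 14.6, 386 and 384, and Socs2, a brake on cytokine receptors, 43.7, 657 and 531. With the further PBS cells Cd200 had 43.8 and Socs2 219 CPM in PBS, and both were still past 2-fold higher after WGP.

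Antigen presentation genes differed less. Of 14 MHC class II genes 11 passed the filter, with a median log2 ratio of -0.39 at 3 days and -0.37 at 7 days over PBS, which is smaller than the shift that TMM scaling brings. H2-Ab1, which the rule used, had 8810, 6737 and 6363 CPM, and Cd74, the invariant chain, 17969, 17619 and 15944. H2-DMb2 was past 2-fold lower at 3 days and H2-Oa at both times, both of which encode parts of molecules that handle peptide loading, and Lgmn, a lysosomal protease, was higher at both times. With the further cells Lgmn was the 1 gene of the list still called. Of 15 MHC class I genes 13 passed the filter, none higher at 3 days (13.5% of all genes) and 4 (Tap1, Tap2, Psmb9 and Psme2) higher at 7 days (15.6% of all genes) over PBS. With the further cells Tap2 was below 2-fold (0.82) and Tapbp, which holds MHC class I to the peptide transporter, above it (1.09). Calr and Pdia3, chaperones of the peptide-loading complex, were past 2-fold lower at both times, although over all 52 members the ratio of Pdia3 at 3 days was 0.12.

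NF-kB genes were mostly higher in members than in type 1 cells. Of 19 listed 10 passed the filter, 8 of them past 2-fold higher than in type 1 cells in all 3 libraries (13.3% of all genes) and 4 than in type 2 cells (7.95% of all genes). Traf1, an adaptor of TNF receptors, had 1048, 1062 and 1093 CPM. Between libraries 2 were higher (13.5% of all genes) and 1 lower (8.62%) at 3 days and 3 higher at 7 days (15.6%) over PBS, with medians of 0.06 and 0.44. At 7 over 3 days 1 (Nfkbib, which passed only through its 7-day UMIs) was higher (4.85% of all genes). With the further cells 1 was higher and 1 lower at 3 days and 2 higher and 1 (Nfkb1) lower at 7 days over PBS. Of the survival genes 7 of 11 measured (15 listed) were higher than in type 1 and 6 than in type 2 cells in all 3 libraries, beside the same 13.3% and 7.95% of all genes. Serpinb9, an inhibitor of granzyme B, had 29.1, 392 and 696 CPM and had the largest ratio of them at 7 days over PBS.

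Cytoskeletal genes were measured best, 18 of 19 passing the filter, and 5 were past 2-fold higher at 3 days (13.5% of all genes) and 6 at 7 days (15.6% of all genes) over PBS. Actg1, a cytoplasmic actin, had 2898, 8355 and 7666 CPM, and a log2 ratio at 7 days over PBS of 1.40, or 0.96 with the cells just outside the zero limits. With these further cells 3 and 1 remained in number, so the count depended on which PBS cells entered. None was past 2-fold between 3 and 7 days. Lysosomal genes had 3 of 9 measured (16 listed) higher at both times over PBS, beside the same 13.5% and 15.6% of all genes: Cst3, Lamp1 and Cd63. With the further cells Cst3 and Lamp1 were below 2-fold, Psap was past 2-fold lower at 3 days (-1.11), and Cd63 was still called, with a log2 ratio of 1.57 at 3 days.

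Among the 10 largest ratios of 7 over 3 days outside the lists were Slfn5, Epsti1, AW112010, Cdkn1a and Pkib. Slfn5 had 7 UMIs at 3 days and 56 at 7 days (44.2 and 250 CPM), Epsti1 63 and 300 (398 and 1339 CPM) and AW112010, a small transcript found in activated leukocytes, 83 and 341 (525 and 1522 CPM). Cdkn1a, the cell cycle inhibitor p21, had 14 and 93 UMIs (88.5 and 415 CPM), and Pkib, a protein kinase A inhibitor, 11 and 76. Slfn5, Cdkn1a, Pkib and Serpinb1a (named below) passed the filter only through their 7-day UMIs, so each was in part chosen for its level there. Lower at 7 than at 3 days were Dusp2, a MAP kinase phosphatase (log2 ratio -1.78, with 70.5% of its 3-day UMIs in 1 cell, and -0.95 with the further cells), and Rgs2, a brake on G-protein signals (-1.56). Over PBS the largest ratios included AA467197 (14.6, 493 and 719 CPM), Ly6a (14.6, 335 and 647 CPM, with 71.7% of its 3-day UMIs in 1 cell) and Serpinb1a (no UMI in PBS, 183 and 303 CPM). These 3 were also past 2-fold with the further cells, whereas Tubb2a was below PBS at 7 days with them (-0.25).

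General dendritic cell genes were measured in part. Of 12 identity genes 7 passed the filter, Id2 being higher than in PBS at both times and Ikzf1 lower, and with the further cells none was past 2-fold. Flt3, the growth factor receptor of dendritic cell precursors, had 218, 120 and 192 CPM. Besides Ccr7, 2 more of 11 migration receptor genes passed the filter: Gpr183, with 379, 348 and 428 CPM, and the adhesion molecule Icam1, with 102, 367 and 277. Il21r, the receptor of interleukin 21, had no UMI in PBS, 126 CPM at 3 days and 161 at 7 days.

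The origin of the members could not be read from most type-specific genes, since the rule used Xcr1 and Clec9a and few others passed the filter. Of 13 type 1 genes 2 passed: Irf8, above, and Batf3, a factor that type 1 cells need, with 218, 183 and 241 CPM in members, between 191 and 225 in type 1 and between 57.5 and 129 in type 2 cells. Of 12 type 2 genes 2 passed, and both were lower in the WGP libraries. Sirpa had 277, 139 and 44.6 CPM in members and between 182 and 209 in type 2 cells, and Ms4a6c had 466, 120 and 75.9 CPM against between 668 and 1058.

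The 7-day members were split by Irf8 after the values were seen, and the split is given as a description. Of the 23 cells 8 had 10 or more Irf8 UMIs, which no PBS or 3-day cell had, and 15 had fewer, with like depth (median 9449 and 9616 UMIs). All 5 cells with Il12b were among the 8, with 26 to 47 Irf8 UMIs each. The 8 cells held 148 of 155 Ccl22 UMIs, 1864 CPM against 48.4 in the others, although 1 cell held 65.2% of all 155. Of 603 genes tested 45 were past 2-fold higher (7.46%) and 31 lower (5.14%) in the Irf8-high cells.

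Of the maturation genes Cd40 had 1108 CPM in Irf8-high and 263 in the other cells, and Serpinb6b 1675 and 484. Apol7c had 944 and 249 CPM, with 33 UMIs in each of 2 of the Irf8-high cells (of 75) and 32 of 36 UMIs in 1 of the others. The lysosomal gene Cst3 had 15036 and 2751 CPM. Higher in the other cells were S100a4, which lies outside the lists and was chosen after its values were seen (882 and 3020 CPM), Plac8 (151 and 1244), Gpr183, a receptor that guides cells along oxysterols (88.2 and 615), Ciita (75.6 and 380) and Cxcl9 (1008 and 2633). For Cxcl9, 1 of the other cells, with 8 Irf8 UMIs, held 182 of their 381 UMIs. Relb (781 and 795), Il4i1 (869 and 905), Traf1 (1033 and 1127) and Gbp2 (907 and 1016) differed by at most 0.16 on the log2 scale. Ccr7 had 2997 and 1500 CPM, a log2 difference of 0.99.

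**Figure D5:**
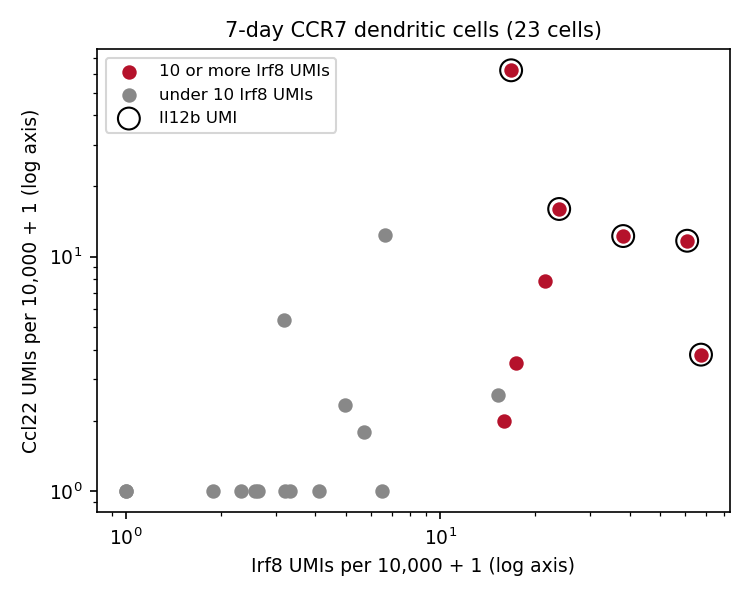
Irf8 against Ccl22 (UMIs per 10000 plus 1, log axes) in the 23 CCR7 dendritic cells at 7 days, 1 point per cell; red cells have 10 or more Irf8 UMIs, grey cells fewer, and ringed cells carry Il12b. The 5 ringed cells all lie among the 8 red ones, and most grey cells lie at the bottom, without Ccl22.

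Shares of cells with a UMI were compared after each cell was thinned to 1000 UMIs. Il4i1 was then found in 4 of 7 members in PBS (57.1%), 10 of 17 at 3 days (58.8%) and 8 of 23 at 7 days (34.8%), against 4.01%, 3.85% and 2.93% of B-cells and at most 0.368% of T-cells. Gbp2 was found in 0 of 7, 7 of 17 (41.2%) and 13 of 23 (56.5%) members, against 1.66%, 2.24% and 9.34% of B-cells. Irf8, which B-cells express, was found in 0 of 7, 1 of 17 (5.88%) and 10 of 23 (43.5%). Without thinning Gbp2 was found in 2, 13 and 22 members and Irf8 in 1, 5 and 21.

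Markers of most other cells were low in the 47 members, but endothelial and plasmacytoid genes were not low in every library. The 5 B-cell genes summed to 612, 461 and 268 CPM, where free RNA had between 26356 and 79013 CPM. T-cell genes summed to at most 44.2 CPM, neutrophil genes to at most 6.32, ILC2 genes to at most 14.6, erythroid genes to at most 31.6, acinar genes to at most 89.2 and the fibroblast genes to 0 in all 3 libraries. NK genes summed to 0, 145 and 13.4 CPM, monocyte or macrophage genes to 160, 600 and 116, and plasmacytoid genes to 597, 177 and 495, the last from Bst2 and Tcf4 in the main. In PBS the plasmacytoid sum was 192 CPM in type 1 cells, 313 in type 2 cells and 326 in free RNA. Endothelial genes summed to 218, 31.6 and 178 CPM, with 12, 4 and 39 UMIs of Kdr. Over the libraries the endothelial sum was at most 12.2 CPM in type 1 cells, 49.3 in type 2 cells and 52.6 in free RNA. PBS and 7-day members lay above these values. Single cells stood out: at 3 days 1 cell held 67 of 81 Lyz2 UMIs and another 23 UMIs of Nkg7 and 12 of Gzma, which mark NK cells. Leaving both cells out moved 5 of 357 ratios of named genes by more than their intervals, among them Lyz2 at 7 over 3 days (-2.17 with both, -0.01 without), and reversed none.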

How the data were processed

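Single-cell 3′ RNA-Seq libraries (10x v3.1 chemistry) of viable CD45+ pancreatic cells were analysed, 1 each for PBS, 3-day WGP and 7-day WGP. The deposited values are UMI counts per gene and barcode, which the authors made with Cell Ranger 3.1.0 against mm10 and left unnormalized, with all barcodes kept; Seurat, also named in the processing notes, was used by the authors after this step. Barcodes with at least 1000 UMIs and at most 30% mitochondrial UMIs were kept, and members were chosen as the report states. Members and gene lists were chosen with earlier results of these data known. UMIs were summed over the members of a library and scaled to CPM, and ratios were taken with 20 CPM added to each side for genes with at least 50 UMIs over the members. The fixed design used all members; because 5 held fibroblast transcripts, gene levels are given over the other 47, a change made after the data were seen. Type 1 cells had at least 2 UMIs of Xcr1 and Clec9a, type 2 cells fewer than 2 of these and at least 2 of Cd209a and Clec10a, and both met the members' H2-Ab1 and zero limits with fewer than 2 UMIs of Siglech. Shares have exact binomial and sums exact Poisson intervals at 95%, which cover counting error only. With 1 library per condition no test was run. Scrublet was run through Scanpy 1.11.5, with NumPy 2.4.6, pandas 2.3.3, SciPy 1.17.1 and Matplotlib 3.10.9 under Python 3.11.15, and the ratio and interval code was tested on simulated data. Named genes were the rule's genes, listed genes, the 10 largest ratios each way per comparison outside the lists, and the 15 largest and 10 smallest lowest-of-3-library ratios over type 1 and type 2 cells. Alternatives were other limits, filters, pseudocounts, scaling, sex, doublet and member settings. Some listed genes are not reported here and were left out of the lists.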

Additional observations from a re-analysis of the deposited data

How the results depend on the processing

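No paired analysis was possible because the labels give 1 library per condition and no replicate numbers, and no replicate could be left out. Shares kept their direction under all alternatives run. Asking for a UMI of each of Ccr7, Fscn1 and Ccl22 gave log2 ratios over PBS of 3.43 (3-day) and 4.03 (7-day) among all barcodes and 3.58 and 3.295 among dendritic cells. Leaving out the cells with fibroblast transcripts and asking for a marker sum of 10 gave 3.81 and 4.58, and 3.92 and 3.79, and Xist cells alone gave 0.0898 and 0.76 among all barcodes. Counts of genes past 2-fold (higher and lower, 3-day over PBS, 7-day over PBS, 7-day over 3-day) depended on the filter, with 620 and 477, 718 and 390, and 254 and 113 at 20 UMIs, and 1008 and 1062, 1213 and 901, and 407 and 213 with no filter. Without the cells with fibroblast transcripts they were 161 and 103, 187 and 76, and 58 and 15, and without the highest doublet scores as well 161 and 109, 186 and 70, and 62 and 14. With TMM 77 and 59 genes were lower than in PBS, with a marker sum of 5 70 were lower at 7 days, and in Y cells 23 were lower at 7 than at 3 days. Of 4335 alternative ratios of 119 named genes, 4059 stayed within the counting interval of the value reported, 268 moved and 8 reversed. With at most 1 UMI for each zero limit, Ccl22 reversed to -0.91 and -1.34 over PBS, Apol7c to -0.0354 (3-day over PBS), Tubb2a to -0.25 (7-day over PBS) and Lyz2 to 1.23 (7-day over 3-day). Over all 52 members Pdia3 (0.12) and Bst2 (0.11) reversed at 3 days over PBS, and with a marker sum of 5 Hspa5 (0.0544) at 7 days over PBS. Without thinning the share of members with a UMI was 100% and 91.3% for Il4i1, 88.2% and 100% for Ccl5, and 94.1% and 95.7% for Relb at 3 and 7 days. Except where a setting itself changes the genes or cells counted, the cause was not tested. The 68674 UMIs of 7 PBS cells limit all ratios over PBS.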
